A study of Mus musculus with 12 samples.

Results

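Livers of mice at 2 weeks after birth were compared with livers of embryos at embryonic day 15.5 (e15.5) for their microRNAs (miRNAs). The comparison took 6 of the 12 samples of a series on mouse liver development, 3 at each of these ages, and all 355 mouse probes of the assay. All livers were from C57Bl/6 mice. The e15.5 samples were of mixed sex and the 2-week samples were male, so age and sex cannot be told apart. Samples of 1 age carried different mouse numbers, but whether an e15.5 sample was 1 embryo or a pool was not stated in the labels. Total RNA was measured with the nanoString nCounter mouse miRNA assay, which counts barcoded probes hybridised to each miRNA without amplification, and the other livers of the series (3 at 3 weeks and 3 at 7 weeks, all male C57Bl/6) entered the estimate of the spread and are quoted only for a few levels.

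The fetal liver is the main blood-forming organ of the embryo, and at mid-gestation blood cells and their precursors crowd the immature hepatocytes. Around birth blood formation moves to the bone marrow and spleen, while hepatocytes take on metabolic functions and become the bulk of the organ. miRNAs follow cell type closely: miR-122 is the dominant miRNA of hepatocytes, miR-144 and miR-451 are made from 1 transcript in red cell precursors, and miR-142 and miR-223 mark blood cells and myeloid cells. In bulk RNA, fewer cells of a type and less RNA per cell cannot be told apart.

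Mature sequences are shown for the miRNAs on which the comparison turns (RefSeq, GRCm38.p6), 5′ to 3′, with the seed (bases 2 to 8, the main determinant of target choice) in capitals. The first 3 belong to blood cells.
miR-144: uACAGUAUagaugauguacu
miR-142-3p: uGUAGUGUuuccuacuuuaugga
miR-223: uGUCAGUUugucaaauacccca
The next 6 belong to the hepatocyte list.
miR-148a: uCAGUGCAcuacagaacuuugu
miR-22: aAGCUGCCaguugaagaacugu
miR-192: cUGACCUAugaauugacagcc
miR-194: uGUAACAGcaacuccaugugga
miR-802: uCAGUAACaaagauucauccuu
miR-101a: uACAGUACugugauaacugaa
The last 7 are family members that share a seed and are compared with each other.
let-7b: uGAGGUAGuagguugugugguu
let-7c: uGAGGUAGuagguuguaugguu
miR-130a: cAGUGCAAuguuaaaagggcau
miR-130b: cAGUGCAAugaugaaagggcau
miR-15a: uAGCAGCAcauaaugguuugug
miR-16: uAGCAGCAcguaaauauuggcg
miR-195: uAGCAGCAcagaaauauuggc

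The sequence of miR-144 lies at chr11:78073047-78073066 (plus strand) and that of miR-142-3p at chr11:87756903-87756925 (plus strand). miR-223 lies at chrX:96242884-96242905 (plus strand), miR-148a at chr6:51269829-51269850 (minus strand) and miR-802 at chr16:93369737-93369758 (plus strand). miR-192 at chr19:6264857-6264877 neighbours the copy of miR-194 at chr19:6264658-6264679, both on the plus strand, and another copy of miR-194 lies at chr1:185313325-185313346. Of the 355 probes, 194 were matched to a mature sequence, 108 by the name in the file and 86 through the current name of the arm.

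Summed over probes, the linear signal of a liver averaged 533888 ± 73665 (SD, n = 3) at 2 weeks and 161535 ± 11975 at e15.5, a 3.31-fold difference. The mean of the 100 brightest probes was 1.75 higher on the log2 scale at 2 weeks. A change is therefore given as deposited and, where this matters, after each liver was centred on these 100 probes ("centred"). The 100 had the highest means over all livers of the series, most of them postnatal, so probes high after birth are favoured. Their shift of 1.75 exceeded the median change of 0.87 over the 156 probes measured in all 6 livers. Centring thus moves calls towards lower and is not a neutral check of scale. The lowest entry of every liver was log2 of 0.001, read as background and called the floor here, and it held 44, 64 and 143 probes in e15.5 livers 3, 2 and 1 and 146 to 163 probes in the 2-week livers. The first e15.5 liver thus stood apart from the others of its age in its number of floor values. Over the 156 probes above the floor in all 6 livers, correlations lay between 0.939 and 0.975 among e15.5 livers, between 0.965 and 0.982 among 2-week livers and between 0.597 and 0.677 across ages. The 2 brightest probes at both ages were miR-720 and the hepatocyte miRNA miR-122, with miR-720 the brighter at e15.5 and miR-122 at 2 weeks. Both enter the summed signal behind the shares given below. None of the muscle, pancreas and pluripotent lists held more than 0.0649% of the signal of any of the 6 livers.

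Of the 355 probes, 100 were higher at 2 weeks (28.2%) and 78 were lower (22.0%) at an adjusted p below 0.05 in limma's moderated test. After centring 68 were higher (19.2%) and 162 lower (45.6%). Called in the same direction on both scales were 68 higher and 78 lower probes. Another 9 probes were higher as deposited and lower after centring, and 23 lost a deposited call of higher. Among the 156 probes above the floor in all 6 livers, 79 were higher and 26 lower as deposited, against 51 and 64 after centring. The number of lower probes also moved with the livers that were fitted, being 118 without e15.5 mouse 1, 51 without e15.5 mouse 2 or without 2-week mouse 2, and 49 without e15.5 mouse 3 or without 2-week mouse 3. Every 2-week liver lay above every e15.5 liver for 105 probes (29.6%) and below for 73 (20.6%).

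**Figure D1:**
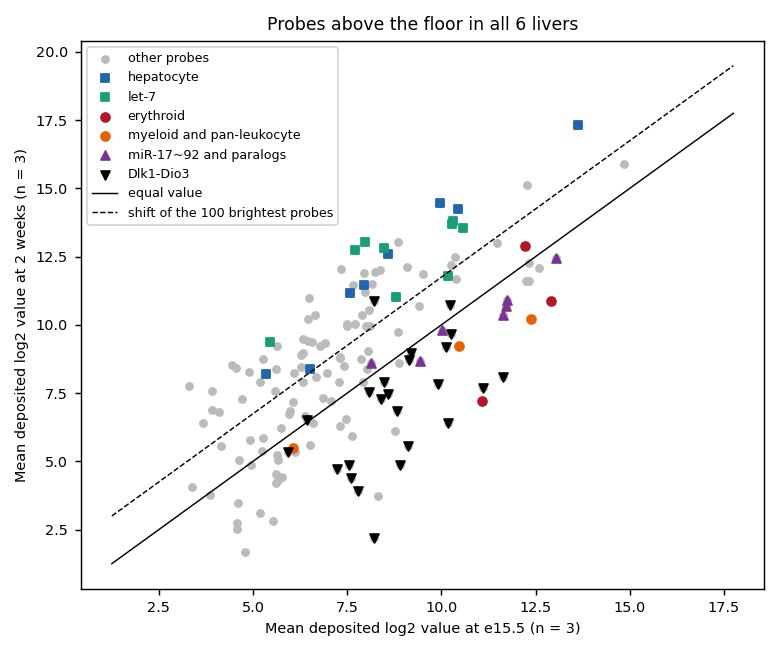
Mean deposited log2 value at e15.5 (x axis) against that at 2 weeks (y axis), n = 3 livers each, for the 156 probes with measured values in every liver; the solid line marks equal values and the dashed line the shift of 1.75 of the 100 brightest probes. Hepatocyte and most let-7 probes lie above the dashed line, while erythroid, myeloid, miR-17/miR-92 and most Dlk1-Dio3 probes lie below it.

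The hepatocyte list rose as a whole. All 11 of its probes were higher at 2 weeks (background 28.2% of all probes), with a median log2 change of 3.81 against -1.34 over all 355 probes and 0.87 over the 156 probes above the floor in all 6 livers. After centring 10 of 11 were still higher (background 19.2%), with a median of 2.07. The exception was miR-193b, a miRNA of liver and brown fat, whose change of 1.86 ± 0.26 (log2 change ± SE, here and below) became 0.11 (adjusted p = 0.67). This list, like the others, was chosen with earlier results of these data known. Counts of list members set against the background are therefore not independent support.

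The deposited log2 value of miR-122, which acts on lipid metabolism and hepatocyte differentiation, was 14.00, 13.50 and 13.42 in the e15.5 livers and 17.73, 17.06 and 17.22 in the 2-week livers. The groups did not overlap, and the change was 3.70 ± 0.19 (adjusted p = 5.1e-08) or 1.95 after centring. It held 7.98 ± 1.33% (SD, n = 3) of the fetal and 31.3 ± 3.58% of the 2-week linear signal. miR-148a, which represses the DNA methyltransferase Dnmt1 and promotes hepatocyte differentiation, gave 10.32, 9.87 and 9.72 at e15.5 and 14.65, 14.18 and 14.51 at 2 weeks. With no overlap it rose by 4.48 ± 0.16 (adjusted p = 2.7e-09; centred 2.73), the largest change among the list's 8 probes above the floor in all 6 livers. Its relative with the same seed, miR-152, read 8.12, 8.07 and 8.08 at e15.5 and 10.91, 10.40 and 10.29 at 2 weeks. The ratio of miR-148a to miR-152 within a liver went up 4.09-fold, and every 2-week liver had a higher ratio than every e15.5 liver (exact two-sided permutation p = 0.1, the smallest that 3 livers against 3 can give, here and below).

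miR-22, which is broadly expressed and bright in adult liver, read 10.49, 10.38 and 10.42 at e15.5 and 14.56, 14.18 and 13.99 at 2 weeks. It rose by 3.81 ± 0.13 (adjusted p = 2.7e-09; centred 2.07). The neighbours miR-192 and miR-194, which are targets of the hepatocyte factor HNF1 in liver and gut, moved together. miR-192 read 7.66, 8.05 and 8.15 at e15.5 and 11.80, 11.43 and 11.18 at 2 weeks, a rise of 3.52 ± 0.18. miR-194 read 8.50, 8.52 and 8.75 against 12.94, 12.53 and 12.27, a rise of 3.99 ± 0.16. Both rises were called on either scale, and within a liver the ratio of miR-192 to miR-194 was 1.38-fold lower at 2 weeks (exact p = 0.1).

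Members were listed at the floor in every e15.5 liver and measured in every 2-week liver in 3 cases. miR-802, linked to hepatic insulin signalling, read 7.30, 7.70 and 8.37 at 2 weeks. miR-101a read 6.40, 7.43 and 6.99, and miR-193 read 5.85, 4.72 and 3.84. No fold is given for these 3, since the e15.5 level is known only as at or below background. The other paralog, miR-101b, was measured at e15.5 (6.59, 8.20 and 7.92) and rose by 3.60 ± 0.38 to 10.72, 11.53 and 11.26. As listed in RefSeq the mature miR-101b starts 1 base earlier than miR-101a, and in that alignment they differ at 1 of 18 bases. miR-365, which neighbours a miR-193 gene in the genome, rose by 2.87 ± 0.28 (centred 1.13) from 4.62, 5.57 and 5.82 to 8.43, 8.14 and 8.07.

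**Figure D2:**
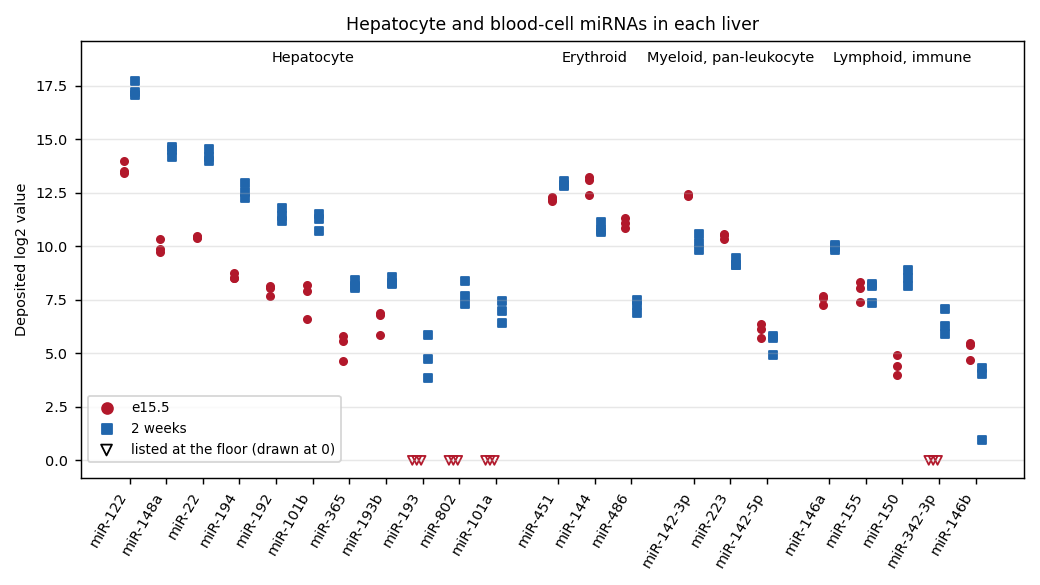
Deposited log2 value of each hepatocyte, erythroid, myeloid and lymphoid list member in the 3 e15.5 livers (circles) and the 3 2-week livers (squares); open triangles at 0 stand for values listed at the floor. All hepatocyte probes are higher in every 2-week liver, whereas miR-144, miR-486, miR-142-3p and miR-223 are lower in every 2-week liver.

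In total the hepatocyte list took 11.5%, 9.12% and 9.6% of the linear signal of the e15.5 livers and 45.5%, 38.2% and 40.9% of that of the 2-week livers. Such a share does not depend on how livers were scaled to each other, but it weights each probe by its own brightness and is dominated by miR-122. At 3 and 7 weeks the share was 49.1 ± 1.78% and 44.3 ± 0.584% (SD, n = 3). Lists of other liver cell types moved beside it. The endothelial list (miR-126-3p and miR-126-5p) went from 2.97 to 3.41% per liver at e15.5 to 7.2 to 8.21% at 2 weeks, the epithelial and biliary list from 0.107 to 0.157% to 0.265 to 0.362%, and the mesenchymal list held 0.894 to 1.05% and 1.08 to 1.29%. Their part in the result was not tested.

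**Figure D3:**
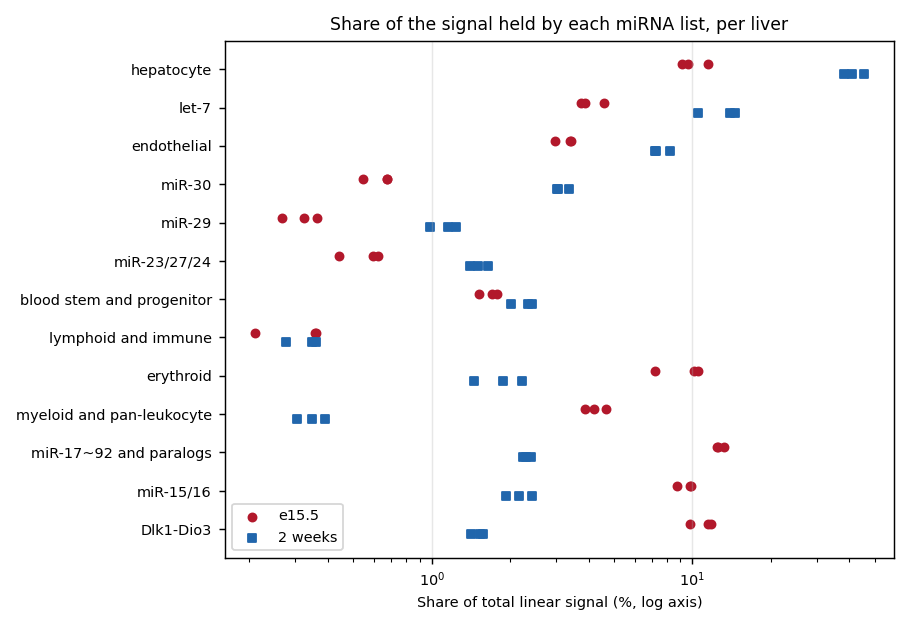
Share of the total linear signal held by each miRNA list (percent, log axis) in each e15.5 liver (circles) and 2-week liver (squares). The hepatocyte, let-7, endothelial, miR-30, miR-29, miR-23/27/24 and blood stem and progenitor lists are larger in every 2-week liver. The erythroid, myeloid, miR-17/miR-92, miR-15/16 and Dlk1-Dio3 lists are smaller in every 2-week liver, and the lymphoid list overlaps.

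The 3 erythroid miRNAs did not move alike. As deposited 2 were lower (background 22.0%) and 1 was higher, and after centring all 3 were lower (background 45.6%). miR-144, whose targets in red cell precursors include regulators of the oxidative stress response, read 12.40, 13.23 and 13.09 at e15.5 and 10.76, 11.15 and 10.68 at 2 weeks. It fell by 2.04 (SE 0.26, adjusted p = 7.6e-05) with no overlap, and its centred change was -3.79. miR-486, which lies in an intron of the erythroid ankyrin gene Ank1 and is also found in muscle, read 11.10, 11.32 and 10.84 at e15.5 and 6.89, 7.48 and 7.25 at 2 weeks. This was the largest fall among the erythroid probes, 3.88 on the log2 scale (SE 0.31, adjusted p = 2.0e-06), or 14.7-fold lower.

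miR-451, which is matured by Argonaute 2 without Dicer and is needed for late red cell differentiation, behaved differently. Its values were 12.23, 12.32 and 12.10 at e15.5 and 12.80, 13.03 and 12.87 at 2 weeks, slightly higher in every 2-week liver. The deposited change of 0.68 ± 0.20 had an adjusted p of 0.017, which became 0.073 when e15.5 mouse 3 was left out and 0.068 when 2-week mouse 2 was, and after centring it was -1.06 (adjusted p = 0.001). The direction of its change thus depends on the scaling.

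Ratios within a liver do not. The log2 ratio of miR-144 to miR-451, which come from 1 transcript, was 0.18, 0.90 and 0.98 in the e15.5 livers and -2.04, -1.88 and -2.19 in the 2-week livers, so that miR-144 was 6.63-fold lower relative to miR-451 at 2 weeks (exact p = 0.1). The ratio of miR-486 to miR-451 was 23.6-fold lower (exact p = 0.1). Against the hepatocyte miRNA miR-122, miR-451 was 8.07-fold lower, miR-144 53.5-fold lower and miR-486 191-fold lower at 2 weeks, with no overlap between the ages for any of them. Of 14 such ratios tested, 12 did not overlap between the ages (adjusted p = 0.117 by Benjamini-Hochberg for each exact p of 0.1). The ratios of miR-486 to miR-451, miR-130b to miR-130a, miR-148a to miR-152, miR-15a to miR-16 and miR-126-5p to miR-126-3p were added after their values were seen. The count of 12 and the adjusted p therefore partly reflect that choice. Those of miR-23b to miR-27b and of miR-126-5p to miR-126-3p overlapped, the latter at 2.14-fold higher (exact p = 0.2). The mean log2 ratio of miR-144 to miR-451 was -1.59 at 3 weeks and -3.10 at 7 weeks.

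**Figure D4:**
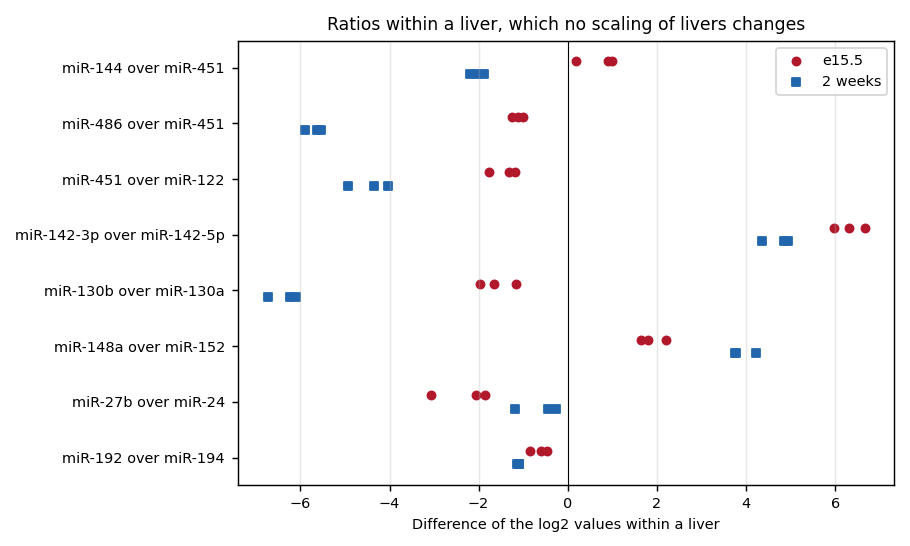
Difference of the log2 values of pairs of miRNAs within each liver (x axis, log2 ratio) for the 3 e15.5 livers (circles) and the 3 2-week livers (squares). The groups are separated for each of the pairs drawn, and among these the means lie farthest apart for miR-130b over miR-130a and miR-486 over miR-451. Both of these pairs, and miR-148a over miR-152, were added after their values were seen.

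The erythroid list held 7.21%, 10.5% and 10.1% of the signal at e15.5 and 1.45%, 2.22% and 1.88% at 2 weeks. As a share of the signal outside the hepatocyte list it was 10.3 ± 1.86% (SD, n = 3) and 3.14 ± 0.465%, so it was also lower when the hepatocyte miRNAs were set aside.

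Of the 3 probes of the myeloid and pan-leukocyte list, 2 were lower (background 22.0%) and 1 was not called as deposited, and all 3 were lower after centring (background 45.6%). miR-142-3p, which is present throughout the blood lineages, read 12.33, 12.38 and 12.44 at e15.5 and 10.58, 10.16 and 9.85 at 2 weeks. It fell by 2.19 (SE 0.20, adjusted p = 4.8e-06; centred change -3.93). miR-223, a miRNA of granulocytes and monocytes, read 10.53, 10.55 and 10.32 against 9.13, 9.44 and 9.13 and fell by 1.23 (SE 0.12, adjusted p = 6.1e-06; centred change -2.98). For both, every 2-week liver was below every e15.5 liver.

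The other arm of the miR-142 hairpin, miR-142-5p, read 6.35, 5.72 and 6.13 at e15.5 and 5.74, 5.80 and 4.91 at 2 weeks. These values overlapped and were not called (-0.58 ± 0.32, adjusted p = 0.14), although the centred change of -2.33 was (adjusted p = 0.00013). The ratio of the 3p to the 5p arm was 3.04-fold lower at 2 weeks, without overlap (exact p = 0.1). The list's share of the signal went from 3.89 to 4.65% per liver to 0.305 to 0.389%, and outside the hepatocyte list from 4.72 ± 0.386% to 0.594 ± 0.067%.

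The lymphoid and immune list had 3 of 5 probes higher (background 28.2%) and none lower (22.0%) as deposited, and 3 higher (19.2%) and 1 lower (45.6%) after centring. miR-150, a miRNA of mature lymphocytes that restrains the transcription factor Myb, read 3.98, 4.42 and 4.91 at e15.5 and 8.90, 8.51 and 8.14 at 2 weeks, a rise of 4.08 ± 0.26 (adjusted p = 3.4e-07; centred 2.34). miR-342-3p was at the floor throughout e15.5 and read 7.06, 5.88 and 6.28 at 2 weeks. miR-146a, which dampens NF-kappaB signalling, rose by 2.45 ± 0.13 from 7.26, 7.68 and 7.58 to 9.83, 9.98 and 10.06 (centred 0.71, adjusted p = 0.0024).

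In contrast, miR-155, which is induced in activated immune cells, read 7.38, 8.34 and 8.03 at e15.5 and 7.35, 8.23 and 8.16 at 2 weeks. It overlapped as deposited and was lower after centring (-1.75, adjusted p = 0.00079). miR-146b was below its e15.5 values in every 2-week liver (4.32, 4.05 and 0.96 against 4.69, 5.38 and 5.50) but was not called. The summed share of this list was 0.309 ± 0.085% at e15.5 and 0.327 ± 0.045% at 2 weeks, overlapping.

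The list of miRNAs known from blood stem and progenitor cells did not fall. Of its 12 probes 8 were higher (background 28.2%), none was lower (22.0%) and 4 were not called as deposited, and after centring 4 were higher (19.2%) and 1 lower (45.6%), the combined miR-181b+miR-181d probe. These miRNAs are also expressed outside the blood, in stromal and epithelial cells. The HOX-cluster miRNA miR-10a rose by 3.87 ± 0.23 from 4.29, 4.93 and 4.44 to 8.85, 8.37 and 8.06 (centred 2.13). miR-100 was at the floor in 2 e15.5 livers and at -0.81 in the other, and read 8.70, 8.56 and 8.17 at 2 weeks. miR-99a, a paralog of miR-100, and miR-125b-5p rose by 2.46 ± 0.12 and 2.35 ± 0.27, and remained higher after centring (0.72 and 0.60).

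Within the same list miR-125a-5p (1.95 ± 0.20), miR-181a (1.96 ± 0.13) and miR-99b (1.50 ± 0.22) rose as deposited but had centred changes of 0.21, 0.21 and -0.25, which were not called. miR-196a was measured only in 2-week livers 2 and 3 (5.04 and 2.69), and its call (adjusted p = 0.035) was lost without any 1 of 8 livers, among them the 3 e15.5 livers (0.058 to 0.088) and 2-week mouse 2 or 3 (0.11 and 0.12). The list's share of the signal was 1.71%, 1.78% and 1.52% at e15.5 and 2.43%, 2.35% and 2.01% at 2 weeks. Together the erythroid, myeloid and progenitor lists had 18 probes, of which 9 were higher and 4 lower as deposited (background 28.2% and 22.0%) and 4 and 7 after centring (19.2% and 45.6%). Their share of lower probes was thus close to that of all probes as deposited and not above it after centring.

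The miR-17/miR-92 cluster and its paralogs, Myc-induced miRNAs of proliferating cells that are bright in fetal liver, had 5 of 7 probes lower (background 22.0%), 1 higher (28.2%) and 1 not called. After centring all 7 were lower (background 45.6%). The combined miR-20a+miR-20b probe read 13.04, 13.16 and 12.92 at e15.5 and 12.51, 12.46 and 12.39 at 2 weeks, a small fall of 0.58 (SE 0.09, adjusted p = 0.00033; centred change -2.33). miR-19a, another member of the cluster, fell by 1.29 (SE 0.08) from 11.64, 11.66 and 11.62 to 10.48, 10.27 and 10.29. The combined miR-106a+miR-17 probe fell by 1.03 and miR-25 by 0.81.

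The other members of these clusters had less certain changes. miR-93 (-0.74 ± 0.25) had an adjusted p of 0.035 that was lost without e15.5 mouse 1 or 3 (0.092 and 0.098), 2-week mouse 2 or 3 (0.10 and 0.12) or 3-week mouse 2 (0.050). miR-19b was not called (-0.21; centred -1.95), and miR-106b was 0.48 higher as deposited and -1.27 after centring. The deposited call of miR-106b was lost without e15.5 mouse 2 or 3 (0.061 and 0.088), 2-week mouse 1 or 3 (0.082 and 0.097) or 3-week mouse 2 (0.050). The clusters held 12.5%, 12.4% and 13.2% of the signal at e15.5 and 2.31%, 2.41% and 2.24% at 2 weeks, and outside the hepatocyte list 14.1 ± 0.445% and 3.97 ± 0.231%.

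The let-7 family, whose maturation is blocked by LIN28 in fetal cells, rose in all 9 probes (background 28.2%) and in 8 of 9 after centring (19.2%), with a median change of 3.48. let-7c and let-7b, which differ at 1 of 22 bases, were the most raised of all probes above the floor in all 6 livers. let-7b read 7.53, 8.05 and 7.51 at e15.5 and 12.72, 12.76 and 12.80 at 2 weeks, a rise of 5.06 ± 0.14 (adjusted p = 5.4e-10). let-7c rose by 5.09 ± 0.29, from 7.67, 8.74 and 7.48 to 12.71, 13.18 and 13.27. The smallest rise was that of let-7i, 1.61 ± 0.09, which was -0.14 after centring (adjusted p = 0.16). Probes for closely related let-7 members can cross-hybridise, which was not tested here. The family's share of the signal was 3.88%, 4.59% and 3.74% at e15.5 and 10.5%, 14% and 14.6% at 2 weeks.

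Families that are bright in differentiated tissue rose beside let-7. All 5 miR-30 probes were higher on both scales (background 28.2% as deposited and 19.2% after centring), led by miR-30a (7.46, 7.30 and 7.28 against 12.38, 11.97 and 11.78; 4.70 ± 0.15), and so were all 3 miR-29 probes, repressors of collagen transcripts (miR-29a, 3.66 ± 0.10; miR-29c, 3.71 ± 0.11). The 5 probes of the miR-23/27/24 clusters were all higher as deposited. miR-23b rose by 4.49 ± 0.09 from 6.48, 6.44 and 6.52 to 11.10, 10.88 and 10.92. miR-27b, from the same transcript, rose by 4.47 ± 0.44, with e15.5 values of 2.12, 3.51 and 4.22 that were lowest in mouse 1. The ratio of miR-23b to miR-27b did not differ between ages beyond the spread (log2 difference 0.02, exact p = 0.9). miR-24, which is made from both clusters, rose by 2.77 ± 0.52 (centred 1.02, adjusted p = 0.084). The first e15.5 liver was also low for miR-24 (4.19 against 6.57 and 6.09), miR-26a (1.63 against 5.54 and 4.57) and miR-30e (3.86 against 5.90 and 6.00), and these rises kept their calls without it.

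Members of a seed family did not always move together. Combined probes and probes without a matched sequence, such as miR-30b and miR-30d, were left out, so a family can be incomplete here. Among the 18 seed families with at least 2 matched probes, 10 had all matched probes higher as deposited (background 28.2% of all probes higher and 22.0% lower). In 4 families matched probes were called in both directions, and in 2 of them on both scales. The family of miR-130 and miR-301 was 1 of these. miR-130a and miR-130b have the same seed and differ at 2 of 22 bases. miR-130a read 10.55, 10.15 and 10.37 at e15.5 and 12.84, 12.36 and 12.25 at 2 weeks, a rise of 2.13 ± 0.16 (adjusted p = 1.2e-06). miR-130b read 8.59, 9.00 and 8.72 against 6.11, 6.13 and 6.15 and fell by 2.64 (SE 0.33, adjusted p = 7.1e-05).

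Relative to miR-130a, miR-130b was 27.3-fold lower at 2 weeks, with no overlap (exact p = 0.1). After centring the rise of miR-130a was 0.38 (adjusted p = 0.038, and 0.088 when centred on the median of always measured probes), whereas the change of miR-130b was -4.39. The third relative, miR-301a, was 1.06 higher as deposited and -0.69 after centring. Their genes lie apart, miR-130a at chr2:84741116-84741137 and miR-130b at chr16:17124071-17124092, both on the minus strand. The summed share of the family was nearly level, 1.2 ± 0.0896% at e15.5 and 1.16 ± 0.108% at 2 weeks.

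The miR-15/16 family, which represses cyclins and Bcl2, was the other. miR-15a (12.37, 12.14 and 12.19 against 12.03, 11.57 and 11.25) fell by 0.62 (SE 0.16, adjusted p = 0.010) and miR-15b fell by 0.72 (SE 0.13). With only these 2 ages fitted the call of miR-15a was lost (adjusted p = 0.072). miR-16 read 12.56, 12.13 and 12.28 against 12.73, 12.05 and 12.04 and was not called as deposited (-0.05, adjusted p = 0.83), but was lower after centring (-1.80). miR-195, which differs from miR-16 at 2 of 21 bases outside the seed, was at the floor throughout e15.5 and read 6.51, 6.11 and 5.92 at 2 weeks. The family held 9.78%, 8.71% and 9.92% of the signal at e15.5 and 2.42%, 2.17% and 1.92% at 2 weeks. The seeds of miR-144, lower at 2 weeks, and of miR-101a, listed at the floor at e15.5 and measured in every 2-week liver, differ at 1 of 7 bases. The other families with calls in both directions as deposited were miR-106b with miR-93 and miR-25 with miR-32 (1.43 ± 0.20; centred -0.31, not called).

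The imprinted Dlk1-Dio3 cluster, a maternally expressed array of miRNA genes on chromosome 12 that is active in fetal tissues, had 48 probes on the list used here. The list is not complete, since another 4 probes (miR-493, miR-654-3p, miR-673-5p and miR-882) are placed within its span, of which 2 were lower and 2 were not called. As deposited 20 were lower (41.7% of them, against 22.0% of all probes), 2 were higher and 26 were not called, and after centring 32 were lower (background 45.6%) and 1 was higher (19.2%). The 20 became 13 when either e15.5 mouse 2 or 3 was left out, and 11 when either 2-week mouse 2 or 3 was left out. The count also rose, to 24 without e15.5 mouse 1 and to 27 without 7-week mouse 3, so it ranged from 11 to 27. Only 10 of the 20 were called in all 12 fits that left out 1 liver, and 9 of the 20 had a floor value in at least 1 of the 6 livers. Among the 24 list probes above the floor in all 6 livers 11 were lower (16.7% of the 156 such probes), 1 was higher and 12 were not called, and 17 were lower after centring (41.0% of the 156). Every 2-week liver lay below every e15.5 liver for 19 of these 24 probes (25.0% of the 156). miR-541 had the largest fall of all probes above the floor in all 6 livers, from 7.77, 8.44 and 8.43 to 2.74, 2.17 and 1.62. It fell by 6.04 (SE 1.01, adjusted p = 0.00057), but its 2-week values are low and the size of the fall depends on how background was subtracted.

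The 2 members brightest at e15.5 fell. miR-376b read 11.50, 11.68 and 11.69 at e15.5 and 8.43, 8.15 and 7.69 at 2 weeks (-3.53 ± 0.64), and miR-495 read 10.94, 11.32 and 11.05 against 7.77, 7.78 and 7.46 (-3.44 ± 0.43). Of the next 4, miR-377 (-0.59), miR-136 and miR-369-3p (-0.93) were not called (adjusted p = 0.85, 0.87 and 0.81), although with only these 2 ages fitted miR-377 and miR-369-3p were called lower (0.042 and 0.0023). The other, miR-543, fell by 3.78 (SE 0.29, adjusted p = 1.2e-06), and among dimmer members miR-410 fell by 2.08, miR-300 by 3.57 and miR-381 by 3.86. The fall of miR-487b (-2.52 ± 0.82) was lost without e15.5 mouse 2 or 3 (adjusted p = 0.10 and 0.073) or 2-week mouse 2 or 3 (0.067 and 0.084). miR-134, miR-667 and miR-409-3p were measured in every e15.5 liver and at the floor in every 2-week liver, miR-134 from 7.41, 7.73 and 7.63.

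The cluster was not uniform. miR-154 read 8.29, 8.22 and 8.16 at e15.5 and 11.09, 10.65 and 10.92 at 2 weeks, a rise of 2.66 ± 0.11 (adjusted p = 1.1e-08) that was kept after centring (0.92, adjusted p = 0.00015). miR-136 read 10.18, 10.31 and 10.19 against 11.06, 10.75 and 10.37, higher in every 2-week liver but not called (0.50 ± 2.43). The other probe called higher, miR-496, was measured only in 2-week livers 1 and 2 (3.61 and 1.22), and its adjusted p of 0.036 rose to between 0.051 and 0.11 without any 1 of 9 livers. Of the 48 probes, 47 were placed on chromosome 12, over 180.02 kb. The cluster's share of the signal was 9.8%, 11.8% and 11.5% at e15.5 and 1.53%, 1.58% and 1.41% at 2 weeks.

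**Figure D5:**
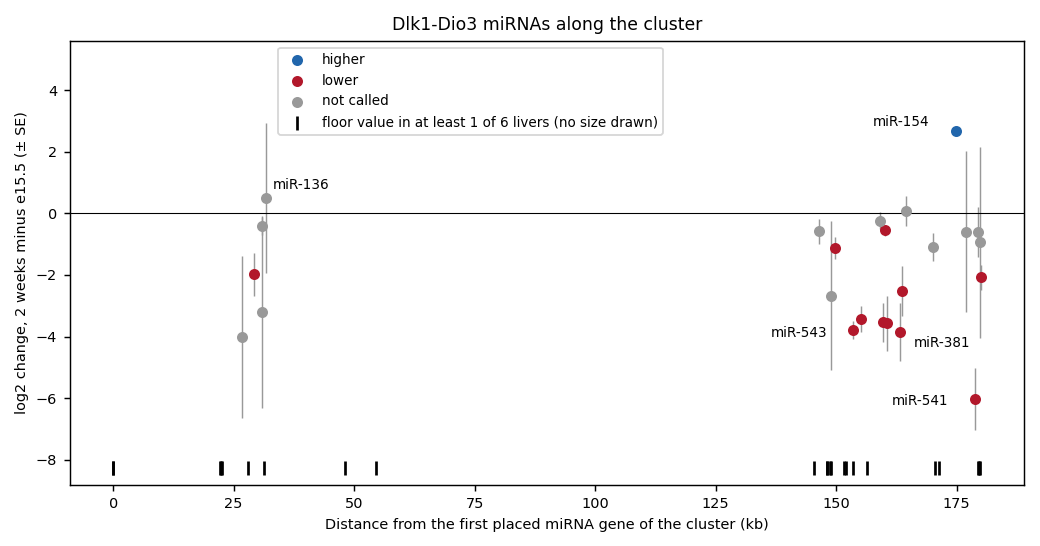
Log2 change from e15.5 to 2 weeks (± SE, as deposited) of the placed Dlk1-Dio3 probes above the floor in all 6 livers against the distance of their gene from the first placed miRNA gene (kb); ticks mark probes with a floor value in at least 1 liver. Falls of miR-543, miR-381 and miR-541 lie within the same stretch as the rise of miR-154.

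Another imprinted pair split by arm. From the hairpin in the H19 transcript, miR-675-3p read 4.29, 4.98 and 2.42 at e15.5 and 7.09, 6.91 and 6.60 at 2 weeks, a rise of 2.97 ± 0.76 (adjusted p = 0.0086; centred 1.22, adjusted p = 0.16). The other arm, miR-675-5p, read 2.78, 5.45 and 5.22 at e15.5 and was at the floor throughout 2 weeks. miR-335-5p, hosted by the imprinted gene Mest, was 0.97 higher as deposited and -0.77 after centring. In all, 8 probes went from the floor in every e15.5 liver to a measured value in every 2-week liver, and 24 went the other way. The brightest of the 24 at e15.5 were miR-1196 (7.60, 7.68 and 7.73) and miR-134, and the brightest of the 8 at 2 weeks was miR-802.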

How the data were processed

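The authors deposited 1 table of log2 values for the 12 livers. Trizol extraction is stated in the labels' protocols and Partek 6.6 is named in the submitters' processing notes; background subtraction, scaling and raw counts are not given in the sources used here, so depth is unknown beyond the total linear signal. The lowest value of each column, log2 of 0.001, was read as background ("floor"), and 6 probes named 2 miRNAs each. All 12 livers entered 1 limma model (version 3.58.1, R 4.3.3; lmFit with a mean for each age, eBayes with trend), and its two-sided p-values for 2 weeks minus e15.5 were Benjamini-Hochberg adjusted over 355 probes, threshold 0.05. A probe partly at the floor at another age therefore has a wide SE here. Shares are of summed linear values. For within-liver ratios the test was an exact permutation of livers, two-sided; those planned were of miR-144, miR-192, miR-23b, miR-27b and miR-142 partners and of erythroid miRNAs to miR-122, and those of miR-486 to miR-451, miR-130b to miR-130a, miR-148a to miR-152, miR-15a to miR-16 and miR-126-5p to miR-126-3p were added after seeing the values. Replicate spread is that between samples, which may be pools at e15.5. The fit was tested on simulated data. Their spread was taken from always measured probes, so that test says little about calls that rest on floor values. Members and lists were chosen with earlier results of these data known. The rule for naming took all members of the hepatocyte and 4 blood lists and, of other lists, those called with the largest change (all of lists of up to 6). It also took the 10 most raised and lowered, floor changes and the brightest probes. Not every probe it took is described. Left out were, among others, the uncalled miR-125a-3p, miR-181c and miR-196b of the progenitor list, miR-1198 and miR-1944. Outside the rule, 16 more, among them miR-154, miR-106b, let-7i, miR-136, miR-377 and miR-709, were named after their values were seen. Armless probe names were matched to the current main arm by hand. Alternatives are listed under how the results depend on the processing. Figures were drawn with matplotlib 3.10.9.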

Additional observations from a re-analysis of the deposited data

How the results depend on the processing

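The 78 lower probes were 24 among the upper 50% of probes by mean, 26 among probes above the floor in all 6 livers, 162 after centring on the 100 brightest probes or on the median of always measured probes, and 157 after division by the total signal. Leaving out each liver gave 94 to 100 higher and 49 to 118 lower probes, and 91 of the 100 higher and 45 of the 78 lower calls were kept in all 12 such fits. The hepatocyte count of 11 stayed at 8 to 11 over all settings (8 where only 8 could be tested). Of the 18 blood-forming probes, 4 to 5 were lower when livers were left out, and 7 after both centrings and division by the total signal. The log2 ratio of miR-27b to miR-24 was 0.97 with log2(linear value + 10), against 1.70.

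On the scales centred on the 100 brightest probes, centred on the median, divided by total signal, divided by the signal outside the hepatocyte list and quantile normalised, in that order, the change of miR-451 was -1.06, -1.09, -1.03, -0.41 and -0.23, that of miR-106b -1.27, -1.29, -1.24, -0.62 and -0.65, that of miR-103 -0.88, -0.91, -0.86, -0.23 and -0.015, that of miR-335-5p -0.77, -0.80, -0.75, -0.12 and -0.12, that of miR-199a-5p -0.88, -0.90, -0.85, -0.23 and -0.64, and that of miR-720 -0.68, -0.71, -0.66, -0.032 and -1.31. On the first 3 of these scales miR-99b changed by -0.25, -0.28 and -0.22, miR-322 by -1.29, -1.32 and -1.27, let-7i by -0.14, -0.16 and -0.11 and miR-32 by -0.31, -0.34 and -0.29. On the first 4, miR-301a changed by -0.69, -0.71, -0.66 and -0.037. For miR-199a-3p it was -0.43, -0.46 and -0.41 on the first 3 and -0.40 after quantile normalisation. The cause of these reversals was not tested.

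Deviations of livers with the same mouse number had correlations of 0.287, 0.517 and -0.347 over 114 probes. Livers with unlike numbers were not correlated for reference, so these values cannot decide whether the numbers pair the samples. With the mouse number as a replicate block 99 probes were higher and 72 lower. With only these 2 ages fitted, 91 were higher and 58 lower. A floor value in at least 1 of the 6 livers enters 73 of the calls, and for these the size of the change is not known.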

Other observations

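Among miRNAs not described above, miR-21, which is widely induced in growth and repair, read 8.24, 7.83 and 8.65 at e15.5 and 12.47, 11.81 and 11.56 at 2 weeks and rose by 3.71 ± 0.28 (adjusted p = 1.2e-06; centred 1.96). The endothelial miR-126-3p read 12.27, 12.34 and 12.24 against 15.35, 15.13 and 14.94, a rise of 2.85 ± 0.10. In the epithelial and biliary list 3 of 5 probes were higher on both scales (background 28.2% as deposited and 19.2% after centring), with miR-200b at 6.59, 6.14 and 6.67 against 9.25, 9.42 and 9.51 and miR-429 at 5.88, 5.66 and 5.37 against 9.16, 9.20 and 9.31. The mesenchymal list was mixed, with miR-143 and miR-145 higher on both scales (3.16 ± 0.29 and 3.34 ± 0.18) and the 2 arms of miR-199a higher as deposited but lower after centring. Of 4 miRNAs carried in introns of metabolic genes, miR-378, from the gene of the coactivator PGC-1beta, rose by 2.78 ± 0.33 (centred 1.03). miR-107 rose by 2.45 ± 0.35 (centred 0.71, not called), miR-103 was higher as deposited and lower after centring, and miR-33, from the gene of the sterol regulator SREBP-2, overlapped between the ages (4.62, 6.10 and 6.21 against 5.36, 5.38 and 4.97).

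Muscle, pluripotent and neural probes were at low values. miR-133a was measured in all e15.5 livers (1.63, 1.73 and 4.30) and listed at the floor at 2 weeks. miR-206, miR-290-5p and miR-291a-3p were measured only in e15.5 livers 2 and 3, and their calls (adjusted p = 0.035, 0.035 and 0.036) were lost when single livers were left out, the highest adjusted p being 0.12 for each. miR-137 was at the floor at e15.5 and read 3.61, 4.14 and 2.07 at 2 weeks. The probe miR-709 read 8.05, 8.31 and 8.56 at e15.5 and 3.47, 4.38 and 3.30 at 2 weeks without overlap. It was not called in the fit of all 12 livers (adjusted p = 0.19), but was with only these 2 ages fitted (0.00023) and without 3-week mouse 3 (0.00074).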
